A study of Mus musculus with 9 samples.

Results

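The rows described here are the 2 rows of the deposited count table named Gm20481 and Rnaseh2a, out of 53379 rows. Gm20481 is an annotated transcript on the strand opposite Hspa1a, and the 5′ end of Rnaseh2a lies opposite the 5′ end of Prdx2. Both rows were picked by name, with the differences between the treatments already known, and both passed the filter on low counts that left 4731 rows. Their counts are read as the protein-coding gene on the other strand, Hspa1a and Prdx2, because most counts of the table lie in such rows. Rows that overlap an exon of a protein-coding gene on the opposite strand, UTRs included, made up 9.33% of the rows. They held 84.4% to 85.5% of the counts of each library. The rows named Actb and Gapdh, genes that nearly every cell uses at a high level, held 4 to 27 and 35 to 47 counts per library.

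RNA was sequenced from MOVAS cells, an immortalized line of mouse aortic smooth muscle cells labelled C57BL/6, in 9 libraries of 3 groups. The 3 control libraries came from untreated cells. The 3 DON libraries came from cells given 50 mM DON (6-diazo-5-oxo-L-norleucine, a glutamine analogue that blocks glutaminase and other enzymes that use glutamine) for 24 h, and the 3 DON plus glutamate libraries from cells given 50 mM DON with 2 mM of a supplement labelled glutamate for the same time. The catalogue number beside this supplement in the labels may be that of a glutamine dipeptide, and the name glutamate is kept here only because the labels use it. All cells grew in DMEM with serum, antibiotics and geneticin. MOVAS is a cell line, and the labels do not say whether the libraries of a group came from separate cultures, so every SD, SE and p-value below measures the spread between libraries, which may be technical. Total counts ran from 1132822 to 1342286, the lowest in DON plus glutamate replicate 3. Of the 12 smooth muscle markers only Tagln and Smtn could be read from the rows that passed the filter. The defining markers Acta2 and Myh11 had no opposite row, and the rows that bear their names held 1 to 14 and 0 to 2 counts. None of the endothelial, leukocyte or epithelial markers could be read from rows that passed, so the label of the line was not tested further here.

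Hspa1a encodes the main heat-inducible Hsp70, a cytosolic chaperone that binds exposed stretches of unfolded protein, and uses ATP and J-domain co-chaperones to hold and refold them. HSF1 binds heat shock elements in its promoter and switches it on when proteins misfold, and Hspa1b beside it is a near-identical copy. Prdx2 encodes peroxiredoxin 2, an abundant cytosolic enzyme that reduces hydrogen peroxide at a reactive cysteine and is then recycled by thioredoxin. In arterial smooth muscle, peroxiredoxin 2 is known for damping the hydrogen peroxide signal downstream of growth factor receptors. Rnaseh2a, whose name the second row bears, encodes the catalytic subunit of ribonuclease H2, which removes ribonucleotides from DNA.

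The Gm20481 row (ENSMUSG00000092609, plus strand of chr17, 34969912 to 34972136, build mm10) has 564 bases of exon, and all of them lie inside the exon of Hspa1a (ENSMUSG00000091971, minus strand, 34969190 to 34972156, 2967 bases). Its stretch from 34969912 to 34970288 faces 289 bases of the Hspa1a coding sequence and 88 bases of its 3′ UTR. The stretch from 34971950 to 34972136 faces 187 bases of the 5′ UTR. Hspa1b (minus strand, 34956436 to 34959238) is so alike that the coding end facing the row is shown for both genes, read from the GRCm38 genome and written in the direction of transcription. Capitals mark the 2 substituted bases in each gene and the 3 bases that Hspa1b has in addition.

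Hspa1a, chr17:34970000-34970098: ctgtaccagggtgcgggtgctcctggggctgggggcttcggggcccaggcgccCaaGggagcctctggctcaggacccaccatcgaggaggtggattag

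Hspa1b, chr17:34957079-34957180: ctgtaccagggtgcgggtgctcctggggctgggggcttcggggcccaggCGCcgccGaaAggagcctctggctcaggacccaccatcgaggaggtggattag

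Over the whole coding sequence 11 of 1929 aligned positions differed between the copies (99.4% identity), and the 5′ UTRs were 98.7% identical. The 3′ UTRs were only 46.5% identical. Of the 50-base windows that touch the facing stretch at the 3′ side, 219 of 426 (51.4%) also occur in Hspa1b, and at the 5′ side 130 of 207 (62.8%) do. With 100-base windows the shares were 31.9% and 39.1%. The read length and the handling of reads with several matches are not given in the sources used here, so the Gm20481 values are uncertain between Hspa1a and Hspa1b to that extent. No row lies opposite Hspa1b, and it could not be read separately.

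The promoter of Hspa1a is shown because it differs from that of Hspa1b at 4 of 300 bases. It holds a short heat shock match and a CCAAT match, both described below. The sequence is from RefSeq (GRCm38.p6, minus strand, 250 bases before the start to 50 after it), and capitals mark GAAGATTC, 104 bases before the start, and ATTGG, the reverse complement of CCAAT, 67 bases before it.

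Hspa1a, chr17:34972107-34972406: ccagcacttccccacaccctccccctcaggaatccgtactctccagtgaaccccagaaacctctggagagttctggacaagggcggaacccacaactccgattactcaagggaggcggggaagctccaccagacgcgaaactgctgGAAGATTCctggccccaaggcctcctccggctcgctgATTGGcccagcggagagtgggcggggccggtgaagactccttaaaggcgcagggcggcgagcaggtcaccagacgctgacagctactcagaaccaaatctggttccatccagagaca

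GAAGATTC matches GAANNTTC, a pair of inverted heat shock units that was added to the search after the sequences were seen, and 7.9% of 32851 promoters of this length hold a match on either strand. The heat shock element of 3 units, with 1 unit more in the same pattern, was also searched on both strands. It matched neither Hspa1a nor Hspa1b, and 0.6% of promoters hold it. CCAAT matched 37.4% of promoters. GAANNTTC is contained in the form with 3 units, so the counts of these 2 searches overlap.

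The Rnaseh2a row (ENSMUSG00000052926, minus strand of chr8, 84956610 to 84969767) has 3509 bases of exon, of which only 177 face Prdx2 (ENSMUSG00000005161, plus strand, 84969587 to 84974834, 3050 bases). In the transcript Prdx2-201, 152 of them are its first bases, all in the 5′ UTR. The genes are thus arranged head to head, with overlapping first exons. The promoter of Prdx2 is shown because all 300 bases of this window face an exon of the Rnaseh2a row. Capitals mark the 85 bases that are also annotated as Prdx2 exon (RefSeq sequence, GRCm38.p6, plus strand).

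Prdx2, chr8:84969372-84969671: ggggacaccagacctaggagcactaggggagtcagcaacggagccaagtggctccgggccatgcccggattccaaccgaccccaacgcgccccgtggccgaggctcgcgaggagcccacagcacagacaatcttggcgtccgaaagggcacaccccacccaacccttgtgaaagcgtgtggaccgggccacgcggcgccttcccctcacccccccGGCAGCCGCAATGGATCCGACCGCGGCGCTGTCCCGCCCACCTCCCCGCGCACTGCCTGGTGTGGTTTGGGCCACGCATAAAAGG

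This window holds none of the motifs searched, including TGACNNNGC, the core of the antioxidant response element, which 12.4% of promoters hold. No 50-base or 100-base window touching the facing stretch of Prdx2 occurs in another gene. The promoter table matched 2 of 2 genes.

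**Figure D1:**
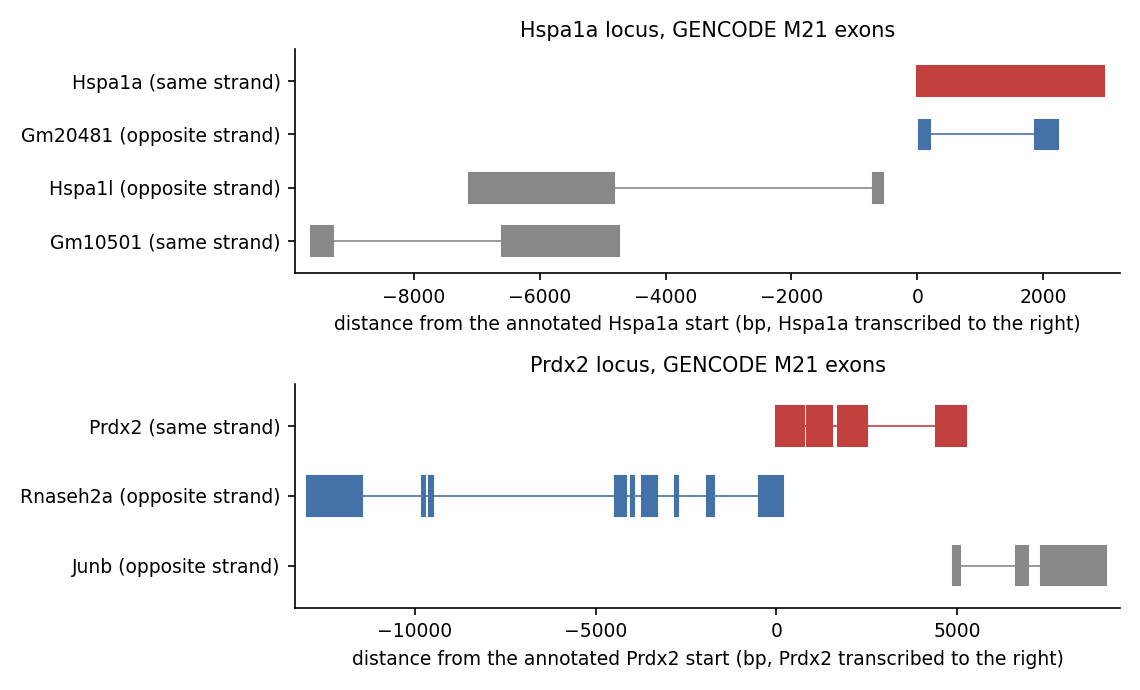
Exons of the rows at the Hspa1a and Prdx2 loci (GENCODE M21), drawn to scale by distance in bases from the annotated gene start, with the read gene transcribed to the right. Both exons of Gm20481 lie within Hspa1a, while Rnaseh2a meets Prdx2 only at its 5′ end and Junb meets it at its last exon.

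Hspa1a, read from the Gm20481 row, was lower in cells given DON plus glutamate than in both other groups. The row held 464, 452 and 368 counts in the 3 control libraries, 466, 426 and 447 in the DON libraries, and 287, 299 and 273 in the DON plus glutamate libraries. In CPM (counts per 1000000 counts, with library sizes adjusted by the TMM method) these were 357.5, 354.9 and 287.5 in control, 348.6, 329.4 and 338.8 with DON, and 216.2, 222.5 and 241.1 with DON plus glutamate. Control replicate 3 was the lowest library outside the DON plus glutamate group, and the control and DON ranges overlapped. All 3 DON plus glutamate libraries lay below all 6 others. Relative to the control mean they stood at 64.9%, 66.8% and 72.3%.

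The group means were 333.3 ± 39.68 CPM in control, 338.9 ± 9.639 with DON and 226.6 ± 12.94 with DON plus glutamate (SD, n = 3). On the log2 scale of the fit over all rows, DON minus control was 0.02 ± 0.09 (SE), DON plus glutamate minus DON was -0.58 ± 0.10, and DON plus glutamate minus control was -0.56 ± 0.10. In mean CPM the DON plus glutamate group differed from DON by -33.2% and from control by -32.1%. Leaving out each library in turn gave -0.62 to -0.55 for the first of these differences and -0.66 to -0.50 for the second, and -0.07 to 0.08 for DON minus control. These contrasts chose the row, so no p-value is given for it.

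Across the table, DON plus glutamate and DON differed at an adjusted p under 0.05 (edgeR's quasi-likelihood test with Benjamini-Hochberg adjustment) in 7 rows, 0.148% of those tested (0.106% higher and 0.0423% lower with DON plus glutamate). Gm20481 was chosen with this contrast known, so its place among them is not a result. The count of 7 rests on few libraries: it was 1 without DON replicate 3, 1 without DON plus glutamate replicate 2 and 11 without DON plus glutamate replicate 3. Without overlap, the DON plus glutamate libraries lay below DON in 6.07% of rows and below control in 11.1%. Of all rows, 1.35% had the DON plus glutamate libraries below all others without overlap, and 0.951% did so while DON and control overlapped, the pattern of Gm20481. In DON plus glutamate minus DON, 93 of 4731 rows had a difference as low or lower. In DON plus glutamate minus control, 128 did.

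Prdx2, read from the Rnaseh2a row, was highest in control, lowest with DON and in between with DON plus glutamate. The row held 1798, 2228 and 2023 counts in control, 1526, 1294 and 1299 with DON, and 1596, 1699 and 1486 with DON plus glutamate. In CPM these were 1385, 1750 and 1581 in control, 1142, 1000 and 984.4 with DON, and 1203, 1265 and 1313 with DON plus glutamate. The 3 groups did not overlap in CPM. In raw counts DON replicate 1 (1526) exceeded DON plus glutamate replicate 3 (1486), the shallowest library, and as a share of the library totals it was lower (1144 against 1312 per 1000000 counts). The narrowest gap between neighbouring groups was from DON replicate 1 to DON plus glutamate replicate 1, 1142 against 1203 CPM.

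The group means were 1572 ± 182.2 CPM in control, 1042 ± 86.54 with DON and 1260 ± 55.13 with DON plus glutamate (SD, n = 3). DON minus control was -0.59 ± 0.08 on the log2 scale (SE), and the mean CPM differed by -33.7%. DON plus glutamate minus DON was 0.27 ± 0.08, or 20.8% in mean CPM, and DON plus glutamate minus control was -0.32 ± 0.08, or -19.9%. Without each library in turn the ranges were -0.68 to -0.51, 0.24 to 0.34 and -0.40 to -0.24. Relative to the control mean the DON libraries stood at 72.6%, 63.6% and 62.6%, and the DON plus glutamate libraries at 76.5%, 80.4% and 83.5%. These are bulk libraries of a cell line, in which fewer cells that express a gene and less of its RNA per cell cannot be told apart.

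The same order, control over DON plus glutamate over DON without any overlap, was seen in 23 rows, 0.486% of those tested. DON and control differed at the adjusted threshold in 6.32% of rows (2.64% higher and 3.68% lower with DON), and DON plus glutamate and control in 3.23% (1.42% higher and 1.82% lower). With library totals in place of TMM, most of the called rows were higher: 180 of 306 in DON minus control, against 125 of 299, and 104 of 154 in DON plus glutamate minus control, against 67 of 153. Without overlap, DON lay below control in 12.9% of rows, and DON plus glutamate above DON in 5.39% and below control in 11.1%. The Rnaseh2a row was among the lower rows of the table in DON minus control, where 156 of 4731 had a difference as low or lower. It was less extreme in the other comparisons: 537 rows had as high a difference in DON plus glutamate minus DON and 504 as low a difference in DON plus glutamate minus control. The comparisons share libraries, and the row was chosen on them, so these positions are descriptions.

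**Figure D2:**
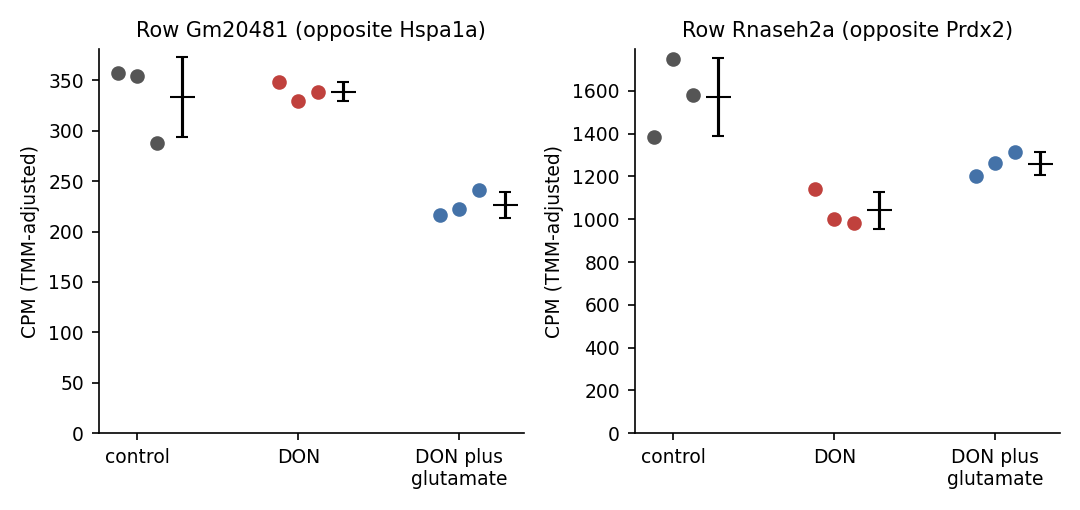
TMM-adjusted CPM of the Gm20481 row (left) and the Rnaseh2a row (right) in each of the 9 libraries, with the mean and SD of each group of 3 beside the points; both axes start at 0. The Gm20481 row stands at 216.2 to 241.1 with DON plus glutamate and at 287.5 or more elsewhere, while the Rnaseh2a row is lowest with DON (984.4 to 1142).

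The rows thus differed in which group was lowest. Rnaseh2a counts per Gm20481 count, a ratio within each library that needs no scaling, were 3.88, 4.93 and 5.50 in control, 3.27, 3.04 and 2.91 with DON, and 5.56, 5.68 and 5.44 with DON plus glutamate. The DON libraries had the lowest ratios, and the ranges of control and DON plus glutamate overlapped. Over the 9 libraries, which share these groups, Pearson's r between the rows' log2(CPM + 1) values was 0.008.

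The spread between libraries was larger than counting alone gives for Prdx2. The coefficient of variation of the Rnaseh2a CPM was 11.6%, 8.30% and 4.38% in control, DON and DON plus glutamate, where counting error alone would give 2.23%, 2.70% and 2.50%. For Gm20481 it was 11.9% in control, against 4.83% from counting, but 2.84% and 5.71% in the treated groups, against 4.73% and 5.91%. The Gm20481 row ranked 795th and the Rnaseh2a row 128th of 4731 by mean CPM. They held 0.0214% to 0.0349% and 0.0969% to 0.168% of a library's counts. Per 1000 facing bases the levels were 591.0, 600.9 and 401.8 CPM for the Gm20481 row in control, DON and DON plus glutamate. For the Rnaseh2a row they were 8881, 5888 and 7118 CPM. These per-length levels rest on 564 and 177 bases only, not on whole transcripts. They place every count of a row in its facing bases, which for Rnaseh2a are only 177 of 3509 exon bases. Whether its counts lie there was not tested.

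The rows named Hspa1a and Prdx2 held 0 to 6 and 5 to 15 counts per library. Junb, a gene of the AP-1 family whose row faces 173 bases in the last exon of Prdx2, should read the same gene from its other end. It held 17, 15 and 14 counts in control, 24, 14 and 12 with DON, and 16, 15 and 6 with DON plus glutamate. The Rnaseh2a row thus held 63.6 to 248 times as many counts, and 110 times as many per facing base over all libraries. For comparison, genes were taken that are read by several rows of at least 100 facing bases, with a mean of at least 100 counts in the larger row. Among these 176 genes, the median ratio per base of the highest row to the next highest was 5.99 (quartiles 1.84 to 34.7). In 28 of them, Prdx2 included, the ratio was at least as large as for Prdx2. The Junb row passed in no comparison of edgeR's quasi-likelihood test, with log2 differences of 0.08 ± 0.34 in DON minus control (adjusted p = 0.937), -0.38 ± 0.35 in DON plus glutamate minus DON (0.902) and -0.30 ± 0.36 in DON plus glutamate minus control (0.759). At 6 to 24 counts its SEs were too wide to set it against the Rnaseh2a row. The 2 ends of Prdx2 therefore gave unlike levels, and the share of the Rnaseh2a row that comes from Prdx2 was not tested.

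**Figure D3:**
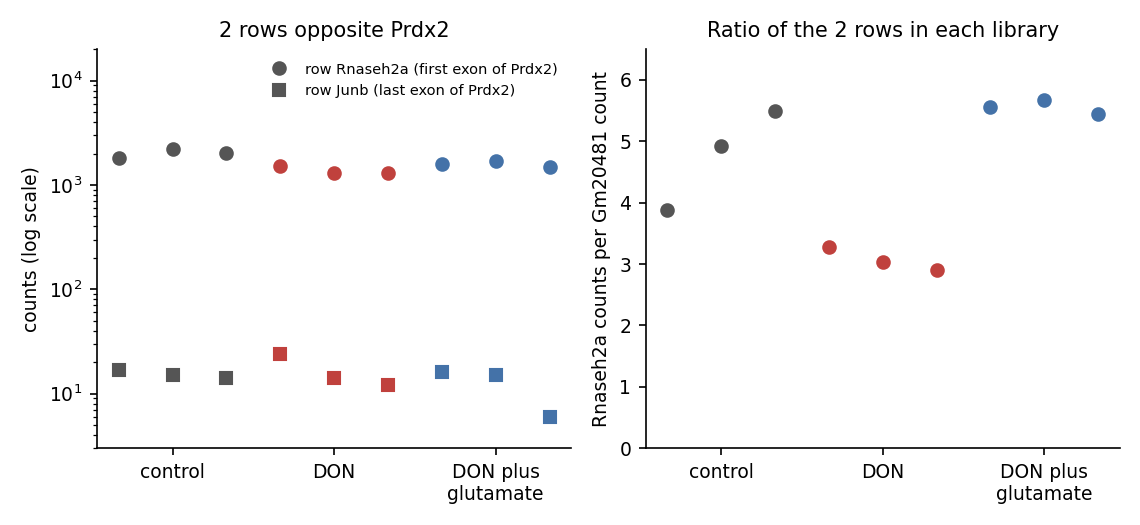
Left, counts per library (log scale) of the 2 rows that face Prdx2, with circles for Rnaseh2a and squares for Junb; the Junb row holds 6 to 24 counts where the Rnaseh2a row holds 1294 to 2228. Right, Rnaseh2a counts per Gm20481 count in each library, lowest in the 3 DON libraries (2.91 to 3.27).

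Hspa1l, a testis-enriched Hsp70 next to Hspa1a, is read from the Gm10501 row. It held 43, 39 and 37 counts in control, 36, 48 and 45 with DON, and 30, 27 and 31 with DON plus glutamate. All 3 DON plus glutamate libraries had fewer counts than the other 6, but in CPM DON plus glutamate replicate 3 (27.38) lay above DON replicate 1 (26.93). The log2 difference from DON was -0.49 ± 0.21 and did not pass (adjusted p = 0.699, edgeR's quasi-likelihood test), nor did that from control, -0.41 ± 0.21 (adjusted p = 0.348). The row named Hspa1l itself held 108 to 157 counts and did not follow: 0.05 ± 0.12 in DON plus glutamate minus DON (adjusted p = 0.967). Hspa8, the constitutive Hsp70, had no opposite row, and the row with its name held 0 to 7 counts. Of the other peroxiredoxins none could be read either, with 0 to 8 counts in the rows named Prdx1, Prdx3, Prdx4 and Prdx6. The row named Prdx5 held 225 to 293 counts and is read as Trmt112 on its opposite strand. The row named Trmt112 faces Esrra as well as Prdx5 and was not read as either.

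Of 7 lists of chaperone, redox and proteasome genes with 231 members besides Hspa1a and Prdx2, 32 could be tested. Of these, 1 passed in DON minus control (lower), 0 in DON plus glutamate minus DON and 1 in DON plus glutamate minus control (lower), against 6.32%, 0.148% and 3.23% of all rows. These shares of called genes lie near the background. At an unadjusted p under 0.05 (edgeR) there were 10, 2 and 4 of the 32, beside 19.4%, 6.72% and 16.0% of all rows. The 10 in DON minus control, 8 lower and 2 higher, were a larger share than in all rows, a difference that was not tested. In the other comparisons 2 of the 2 and 3 of the 4 were lower. In DON plus glutamate minus DON, where edgeR called 0, DESeq2 and limma voom also called 0. The median log2 differences were -0.06, 0.02 and -0.09, beside 0.006, 0.000 and -0.000 over all rows.

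The chaperones and co-chaperones, 18 of 103 measured, had median log2 differences of -0.05, -0.02 and -0.08 in DON minus control, DON plus glutamate minus DON and DON plus glutamate minus control. None was called by edgeR, DESeq2 or limma voom, with 6, 2 and 2 of the 18 at an unadjusted p under 0.05 (19.4%, 6.72% and 16.0% of all rows). Hspb2 (read from the Cryab row), a small heat shock protein of muscle, had 272.0, 267.8 and 240.7 CPM in control and 200.5, 197.2 and 223.6 with DON without overlap. Its difference was -0.33 ± 0.11 (adjusted p = 0.0705, edgeR). Its neighbour Cryab (read from the Hspb2 row), the small heat shock protein alpha-B crystallin, gave -0.31 ± 0.12 (adjusted p = 0.120, edgeR). Cdc37l1 (read from the Ak3 row), a relative of the Hsp90 co-chaperone Cdc37, had group means of 187.0, 229.7 and 191.2 CPM in control, DON and DON plus glutamate. It gave 0.30 ± 0.10 in DON minus control (adjusted p = 0.0747) and -0.27 ± 0.10 in DON plus glutamate minus DON (0.576; edgeR). Hsp90b1 (read from the 1810014B01Rik row), the Hsp90 of the endoplasmic reticulum, had 9633, 9150 and 8675 CPM on average and gave -0.15 ± 0.07 in DON plus glutamate minus control (adjusted p = 0.276, edgeR). No measured chaperone passed in the direction of Gm20481 or in any other. Hspb2 and Cdc37l1 passed in DON minus control when only the opposite-strand genes were fitted, Hspb2 also with only the compared groups or without DON plus glutamate replicate 1 or 3, and Cdc37l1 also with library totals.

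The redox genes, 10 of 90 measured, had medians of -0.08, 0.02 and -0.08, and none was called by any of the 3 tools (3, 0 and 1 of the 10 at an unadjusted p under 0.05, beside 19.4%, 6.72% and 16.0% of all rows). Txnip (read from the Gm15441 row), the inhibitor of thioredoxin, had 2084, 2306 and 2237 CPM on average, and DON minus control was 0.15 ± 0.07 (adjusted p = 0.266, edgeR). Txndc5 (read from the AC154747.3 row), a disulfide isomerase of the thioredoxin family, gave -0.19 ± 0.08 (adjusted p = 0.212, edgeR). G6pdx (read from the Ikbkg row), the enzyme that starts the NADPH-making pentose phosphate pathway, had 373.2, 311.5 and 339.3 CPM on average. This is the same order of means as Prdx2. Txndc5, Keap1 and Gss (read from the Gssos2 row) had this order too, and the other measured redox genes did not. The differences of G6pdx were -0.26 ± 0.09 in DON minus control (adjusted p = 0.111) and 0.12 ± 0.10 in DON plus glutamate minus DON (0.884; edgeR). The first of these passed without DON replicate 1. Keap1 (read from the Gm16754 row), which holds NRF2 down, gave -0.19 ± 0.09 in DON minus control (adjusted p = 0.239, edgeR). Gstz1 (read from the Pomt2 row), a glutathione transferase, was at 116.0, 113.1 and 115.7 CPM with DON plus glutamate and at 102.1 or lower with DON, without overlap. This difference was 0.21 ± 0.11 (adjusted p = 0.790, edgeR).

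Vcp (read from the 1700022I11Rik row), the ATPase that pulls ubiquitinated proteins out of complexes, was the called member, 1 of 5 measured in the proteasome list of 39. It had 3150, 3292 and 3277 CPM in control, 2556, 2517 and 2781 with DON, and 2616, 2532 and 2893 with DON plus glutamate. Both treated groups lay below control without overlap. It fell by 0.31 ± 0.07 on the log2 scale in DON minus control (adjusted p = 0.00724, edgeR) and by 0.27 ± 0.07 in DON plus glutamate minus control (adjusted p = 0.0276). DON plus glutamate minus DON was 0.03 ± 0.07 (adjusted p = 0.959, edgeR). The call against control with DON plus glutamate was lost with library totals, without the filter on low counts, and without control replicate 1, 2 or 3 or DON plus glutamate replicate 1 or 2 (adjusted p from 0.00475 to 0.165 over all alternatives). Of the other subunit genes of ribonuclease H2, Rnaseh2c (read from the Kat5 row) gave -0.04 ± 0.16 in DON minus control, and it passed in no comparison. Nor did Mast1, Dnase2a and Wdr83, which lie near Prdx2, or Hspa1l and C2, which lie near Hspa1a.

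**Figure D4:**
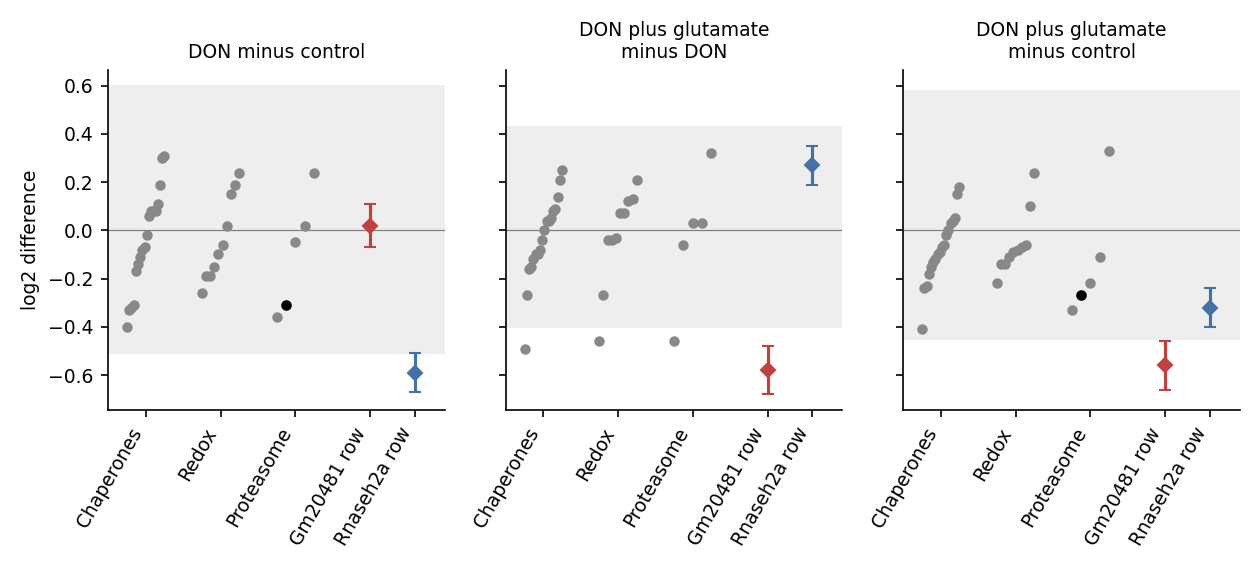
Log2 differences (from the fit over all rows) of the measured genes of the chaperone, redox and proteasome lists (circles) beside those of the Gm20481 and Rnaseh2a rows (diamonds with SE) in the 3 comparisons; the grey band spans the 5th to 95th percentile of all 4731 rows, and black circles passed the adjusted threshold (Vcp). Gm20481 lies below the band in both comparisons of DON plus glutamate, at -0.58 and -0.56, and Rnaseh2a below it in DON minus control, at -0.59.

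Levels of smooth muscle markers moved beside these rows. The summed CPM of Tagln and Smtn, genes for actin-binding proteins of smooth muscle, was 958.7 to 1115 in control, 770.1 to 868.5 with DON and 732.2 to 1019 with DON plus glutamate. Tagln (read from the AC122273.1 row) had 241.9, 266.2 and 229.7 CPM in control, 164.6, 187.9 and 163.7 with DON, and 306.7, 232.2 and 195.2 with DON plus glutamate. It fell by 0.52 ± 0.13 on the log2 scale in DON minus control (adjusted p = 0.0132, edgeR), a call lost without control replicate 2 or DON replicate 3. DON plus glutamate minus DON was 0.51 ± 0.13 (adjusted p = 0.182, edgeR). That difference passed without DON plus glutamate replicate 3 and without the filter on low counts. Smtn (read from the Gm11946 row) had 803.7, 848.9 and 729.0 CPM in control, 647.2, 582.2 and 704.8 with DON, and 712.0, 664.7 and 537.0 with DON plus glutamate. Both treated groups lay below control without overlap, and they overlapped each other. Its differences were -0.30 ± 0.10 in DON minus control (adjusted p = 0.0607), -0.01 ± 0.10 in DON plus glutamate minus DON (0.982) and -0.31 ± 0.10 in DON plus glutamate minus control (0.0736; edgeR). The first passed in 6 alternatives: without the filter, with only the compared groups, with opposite-strand genes only, and without control replicate 3 or DON plus glutamate replicate 1 or 3. The last passed without DON plus glutamate replicate 1. The only fibroblast marker measured of 6, Pdgfra (read from the Gm42803 row), ran from 14.13 to 16.95 CPM in control, from 2.32 to 8.23 with DON and from 2.977 to 10.6 with DON plus glutamate. It fell by 1.75 ± 0.44 on the log2 scale in DON minus control (adjusted p = 0.0147, edgeR), a call lost with DESeq2 and without control replicate 1 or DON replicate 2 or 3. DON plus glutamate minus control was -1.17 ± 0.41 (adjusted p = 0.131, edgeR). The part of these in the values of Gm20481 and Rnaseh2a was not tested.

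The rows most like each of the 2 over the 9 libraries were ranked by Pearson's r of log2(CPM + 1) among 2144 rows that read a named gene at a mean of 20 CPM or more. The libraries share their groups, so r is a description. For Gm20481 they read Tbc1d22b (r = 0.911), Ahctf1 (0.904), Baiap2l1 (0.877), Rgs12 (0.856) and Znrd1as (0.854). Each was lower with DON plus glutamate than with DON, by less than Gm20481: the log2 differences ran from -0.46 ± 0.12 for Znrd1as to -0.19 ± 0.11 for Tbc1d22b. For Rnaseh2a they read Cyth2 (0.960), Ndufb2 (0.957), Dolpp1 (0.955), Tmem59 (0.945) and Vps52 (0.938). All 5 had the order of means control, DON plus glutamate, DON. Ndufb2, a subunit of respiratory complex I, had 438.0, 327.9 and 383.7 CPM on average in control, DON and DON plus glutamate, and Dolpp1 had 29.89 ± 5.03, 17.7 ± 2.82 and 24.15 ± 3.78 (SD, n = 3).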

How the data were processed

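The deposited table holds raw counts per gene, which the authors made with STAR and HTSeq on mm10, per the submitters' processing notes; versions, read length, library strand and the HTSeq settings are not given in the sources used here. RNA was extracted with a column kit and sequenced on a DNBseq platform, per the labels' protocols. Each row was read as the protein-coding gene whose exons it overlaps on the opposite strand (GENCODE M21, exactly 1 gene, at least 50 bases). A value is the count of the whole row, and whether its counts lie in that overlap was not tested. Of 53379 rows, 53274 matched the annotation. In R 4.3.3, edgeR 4.0.16 (filterByExpr, TMM, glmQLFit, glmQLFTest) was fitted to all 9 libraries with 6 residual degrees of freedom. All p-values are two-sided and adjusted by Benjamini-Hochberg over 4731 rows, with calls under 0.05. Depth was about equal except in 1 library, and pairs of replicates differed by more than counting noise (chi-square per degree of freedom from 2.08 to 3.28).

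The 2 rows and all gene lists were chosen with earlier results of these data known. Named are the 2 rows, their paralogs, in each list up to 4 measured genes of smallest p and any called gene, the rows under the names of the loci, and the 5 rows most like each by Pearson's r. Alternatives were DESeq2 1.42.0, limma 3.58.1 voom, other scalings and filters, a replicate block, the compared groups only, opposite-strand genes only, and leaving out each library.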

Additional observations from a re-analysis of the deposited data

How the results depend on the processing

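All 6 differences of Gm20481 and Rnaseh2a moved by less than the spread between replicates in all 18 alternatives, library totals included. The count of rows called in DON plus glutamate minus DON (7) became 15 without the filter on low counts, 2 with DESeq2's Wald test, 3 with limma voom, 3 with only the compared groups and 1 with opposite-strand genes only, and ran from 1 to 11 when 1 library was left out. Leaving out 1 library gave 173 to 318 rows in DON minus control (299) and 88 to 178 in DON plus glutamate minus control (153). With library totals, 180 of 306 rows called in DON minus control and 104 of 154 in DON plus glutamate minus control were higher, and the median of all rows moved to 0.053 in both. Chaperone members called in DON minus control (0) became 1 with library totals, without the filter and with only the compared groups, and 2 with opposite-strand genes only (0 to 1 without 1 library). Over the 7 lists (1) they became 2, 2, 2 and 3 in that order (1 to 3). In DON plus glutamate minus control the proteasome list and all 7 lists (1 each) had 0 with library totals and without the filter (0 to 1), and redox members in DON minus control (0) ran from 0 to 1. Replicate numbers did not pair the libraries: same-numbered libraries correlated at -0.194 to 0.155 in their deviations from the group means, and 2 of 9 correlated best with their own number. A replicate block gave 221, 6 and 117 called rows, and differences of 0.03, -0.58 and -0.56 for Gm20481 and -0.59, 0.27 and -0.32 for Rnaseh2a.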
